A study of Mus musculus with 5 samples.

Results

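Bcl2, Bcl2l1, Bcl2l11, Mcl1, Bax, Bak1, Bid, Casp8 and Fasl are 9 genes of lymphocyte survival and apoptosis, taken from the 22350 protein-coding genes of the annotation. A region was counted for a gene if it overlapped the gene body extended by 20 kb on each side. These windows contained 17 of 9135 Runx3-bound regions and 65 of 18992 H3K4me1-marked regions.

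The maps came from ChIP-seq of CD8+ T cells (CD8-TC) from spleens of WT ICR mice, an outbred stock, without a Runx3-deficient or resting group in these files. All groups shared the same cells, which had been enriched on anti-CD8 magnetic beads, stimulated through the TCR and CD28 for 2 days and then kept in 100 u/ml IL-2 for another 4 days. Libraries numbered 5 and were 2 precipitations with anti-Runx3 antibody, 2 with non-immune rabbit serum (NIS) as control and 1 with anti-H3K4me1 antibody. Each list had been called once on joined reads, so the lists give no spread between repeats and no height or read number for a region, and nothing below could be tested against replicate error. It is not clear if 1 or 2 libraries lie behind the H3K4me1 list, because the labels name 1 and the protocol speaks of repeat experiments for both antibodies. The authors report fewer aligned Runx3 and NIS reads for these cells than for the other cell states they mapped. A region absent from a list may have been missed at this depth, which was not tested.

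In the intrinsic pathway, members of the BCL2 family decide whether the outer mitochondrial membrane is breached. The anti-apoptotic proteins BCL2, BCL-XL (encoded by Bcl2l1) and MCL1 hold back the pore-forming proteins BAX and BAK (encoded by Bak1), and BH3-only proteins such as BIM (encoded by Bcl2l11) and BID relieve that block. In the extrinsic pathway, Fas ligand (encoded by Fasl), which cytotoxic T cells display to kill targets and to limit their own expansion, engages Fas and activates caspase-8, which can cleave BID and so joins both pathways. IL-2 is a survival signal for activated T cells, and BIM is a main driver of their death when cytokine is withdrawn. Runx3, a transcription factor that binds RUNX motifs, shapes the cytotoxic T cell lineage, while monomethylation of histone H3 at lysine 4 (H3K4me1) is common at enhancers.

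The RUNX motif was searched in its form TGTGGT, its form TGTGGC, its form TGCGGT and its form TGCGGC. The ETS motif was searched with the spelling AGGAAA, with the spelling AGGAAG, with the spelling CGGAAA and with the spelling CGGAAG, and the AP-1 motif with the spelling TGACTCA and with the spelling TGAGTCA. Both strands were searched, and overlap between motifs was allowed. A match describes the letters of a region and is not a measured site. Runx3-bound regions are numbered for each gene from upstream to downstream in the direction of transcription. The following sequences are from NCBIM37 (mm9) and read 5′ to 3′ on the strand of the gene. In this first set, which shows the RUNX motif nearest to the centre of a Runx3-bound region, capitals mark each RUNX motif, written as its reverse complement where it lies on the other strand. The set holds, for each gene with such a motif outside exons, the Runx3-bound region nearest to the gene start or the widest one.
Bcl2 region 1, chr1:108509403-108509523, minus strand: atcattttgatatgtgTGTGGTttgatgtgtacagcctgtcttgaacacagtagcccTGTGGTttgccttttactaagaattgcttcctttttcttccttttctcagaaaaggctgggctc
Bcl2l1 region 1, chr2:152651606-152651726, minus strand: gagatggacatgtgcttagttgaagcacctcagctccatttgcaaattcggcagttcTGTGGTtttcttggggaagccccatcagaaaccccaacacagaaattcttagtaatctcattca
Mcl1 region 2, chr3:95472620-95472740, plus strand: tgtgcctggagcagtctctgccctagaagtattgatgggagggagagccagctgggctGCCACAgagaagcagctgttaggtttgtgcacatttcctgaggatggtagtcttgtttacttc
Bcl2l11 region 2, chr2:127978883-127979003, plus strand: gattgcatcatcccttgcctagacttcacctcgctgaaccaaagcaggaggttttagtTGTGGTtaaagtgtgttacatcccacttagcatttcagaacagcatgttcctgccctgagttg
Casp8 region 1, chr1:58854448-58854568, plus strand: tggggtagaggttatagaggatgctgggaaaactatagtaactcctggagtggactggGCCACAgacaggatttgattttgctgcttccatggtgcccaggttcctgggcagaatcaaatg
Fasl region 1, chr1:163734790-163734910, minus strand: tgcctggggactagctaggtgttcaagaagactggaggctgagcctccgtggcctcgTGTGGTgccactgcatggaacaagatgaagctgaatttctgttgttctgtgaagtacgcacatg
Fasl region 2, chr1:163724822-163724942, minus strand: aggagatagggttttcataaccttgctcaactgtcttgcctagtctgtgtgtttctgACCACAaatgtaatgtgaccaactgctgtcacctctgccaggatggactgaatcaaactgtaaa

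The second set shows the exceptions and further RUNX motifs. Capitals mark ETS motifs in the 2 Runx3-bound regions without a RUNX motif, namely the part of Mcl1 region 1 upstream of the annotated start and the central part of Bcl2l11 region 1.
Mcl1 region 1, chr3:95462365-95462642, plus strand: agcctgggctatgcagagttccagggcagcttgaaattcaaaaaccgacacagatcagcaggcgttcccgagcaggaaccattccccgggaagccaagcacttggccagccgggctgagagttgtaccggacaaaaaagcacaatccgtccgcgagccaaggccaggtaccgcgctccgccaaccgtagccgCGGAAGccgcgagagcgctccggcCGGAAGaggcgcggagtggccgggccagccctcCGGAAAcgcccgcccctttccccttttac
Bcl2l11 region 1, chr2:127959757-127959956, plus strand: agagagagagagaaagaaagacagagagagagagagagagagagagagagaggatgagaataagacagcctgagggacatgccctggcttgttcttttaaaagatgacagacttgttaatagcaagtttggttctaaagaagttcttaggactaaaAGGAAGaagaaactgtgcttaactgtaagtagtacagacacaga
Capitals mark RUNX motifs in the central parts of both Fasl regions on the 3′ side of the gene, where RUNX motifs lie 22 and 12 bp apart, and in a short stretch of Bax region 1, whose RUNX motifs were of the TGCGGC form.
Fasl region 3, chr1:163709335-163709534, minus strand: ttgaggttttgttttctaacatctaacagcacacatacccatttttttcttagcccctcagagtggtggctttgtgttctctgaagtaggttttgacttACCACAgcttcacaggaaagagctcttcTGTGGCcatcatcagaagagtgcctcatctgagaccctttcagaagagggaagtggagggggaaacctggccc
Fasl region 4, chr1:163696881-163697080, minus strand: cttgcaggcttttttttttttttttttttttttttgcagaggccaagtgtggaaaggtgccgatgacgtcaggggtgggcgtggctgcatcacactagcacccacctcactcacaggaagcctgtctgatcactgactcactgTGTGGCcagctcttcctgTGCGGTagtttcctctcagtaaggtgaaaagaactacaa
Bax region 1, chr7:52722171-52722200, minus strand: tgaccgtggtgcGCCGCAgccgccggggcg

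Runx3-bound regions were present at 7 of the 9 genes, and H3K4me1-marked regions at all 9. Of all protein-coding genes, 34.2% had at least 1 Runx3-bound region in the same kind of window and 39.4% had an H3K4me1-marked region. At least 2 Runx3-bound regions were found at 5 of the 9 genes, against 13.6% of all genes, and at least 1 Runx3-bound region that overlapped H3K4me1 was found at 5 of the 9 genes, against 17.8%. Those 5 genes were the same in both counts, namely Bcl2, Bcl2l1, Mcl1, Bcl2l11 and Fasl. The median over the 9 genes was 2 Runx3-bound regions, 6 H3K4me1-marked regions and 19.7% of the window covered by H3K4me1. Over all protein-coding genes each of these medians was 0, as the shares above imply. The 8 T cell genes used as markers below all had a Runx3-bound region. Their medians, 2.50 Runx3-bound regions, 8 H3K4me1-marked regions and 21.0% cover, were above those of the 9 genes, though some of their windows can share regions. The windows differ in length from 44.5 kb at Mcl1 to 216 kb at Bcl2, so counts are given below with a density or a share of the window.

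By role, the 3 anti-apoptotic genes accounted for 9 of the Runx3-bound and 45 of the H3K4me1-marked regions. The 2 BH3-only genes held 2 and 8, all but 1 of them at Bcl2l11, and the 2 pore-forming genes held 1 and 2. The 2 genes of the death receptor arm held 5 and 10, of which Fasl had 4 and 9. Thus Bid, Bax, Bak1 and Casp8 each had a single H3K4me1-marked region and 0 or 1 Runx3-bound regions, and the other 5 genes held 15 of 17 Runx3-bound regions and 61 of 65 H3K4me1-marked regions. The counts by role are not adjusted for window length, and Bcl2 (216 kb) and Bcl2l1 (104 kb) had the longest windows. Per 100 kb, Bcl2 had 1.39 and Bcl2l1 1.92 Runx3-bound regions, below Bax (2.21), Bcl2l11 (2.61) and Fasl (8.37). Casp8 (1.09), Bid and Bak1 were lower, and Mcl1 had the highest density among these genes. A preference of Runx3 for 1 role was not tested.

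**Figure D1:**
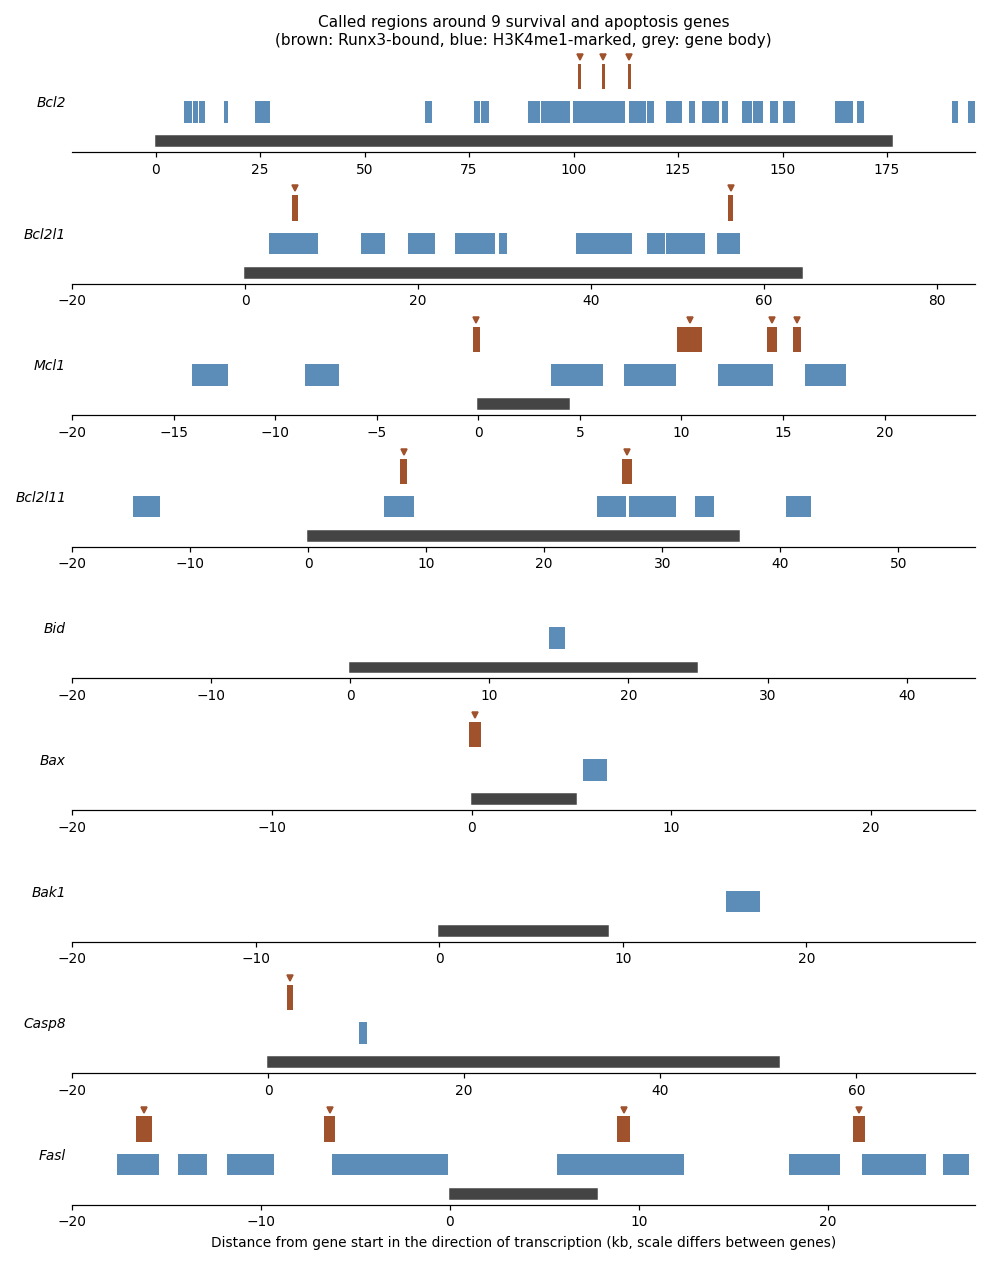
Called regions around the 9 genes, with distance from the gene start in kb in the direction of transcription on the horizontal axis (a separate scale for each gene), Runx3-bound regions in brown with a triangle above each, H3K4me1-marked regions in blue and the gene body in grey. Bcl2 has 29 H3K4me1-marked regions in its window, most of them in the gene body, with 3 Runx3-bound regions near 101 to 113 kb. Fasl and Mcl1 have 4 Runx3-bound regions each, and Bid and Bak1 have none.

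Bcl2, the founding anti-apoptotic gene, lies at chr1:108434755-108610851 on the minus strand and is 176 kb long. Its window held 29 H3K4me1-marked regions, a number reached by 7 protein-coding genes (0.0313%). More were held by Gm20388 (136 regions in a 4475 kb window), Eif4e3 (35 in 449 kb) and Bach2 (33 in 387 kb). The same was true of Fgfr2 (32 in 3049 kb), Ankrd11 (30 in 199 kb) and Clec16a (30 in 240 kb). In its 216 kb window Bcl2 had 13.4 H3K4me1-marked regions per 100 kb, below Fasl (18.8) and Mcl1 (13.5) and above the other members. The marked regions of Bcl2 covered 71.1 kb or 32.9% of the window, a share reached by 92 genes (0.412%). They began 6.73 kb inside the gene, were sparse between 27.4 and 76.1 kb from the gene start, where 1 region lay, and followed each other closely from 89.2 to 153 kb. The widest, of 12514 bp, spanned 99.9 to 112 kb from the gene start, and 6 of all 18992 regions were wider. With regions less than 1 kb apart joined, a block of 30.0 kb at chr1:108491653-108521662 resulted, and 5 of 14899 such blocks in the genome were wider.

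All 3 Runx3-bound regions of Bcl2 lay inside that block. They sat in the single long intron of the gene (169 kb) within 11.9 kb of each other, while the density over the whole window was 1.39 per 100 kb, a value reached by 25.6% of genes. Bcl2 region 1 (chr1:108509016-108509758, 743 bp, the widest and the nearest to the gene start at 101 kb) and region 2 (chr1:108503408-108503990, 583 bp, at 107 kb) were wholly inside the 12514 bp H3K4me1-marked region. Region 3 (chr1:108497142-108497864, 723 bp, at 113 kb) straddled an edge. It covered part of the 907 bp between that H3K4me1-marked region and the next, and 52.8% of it was marked.

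Region 1 of Bcl2 held 4 RUNX motifs, 3 of them TGTGGT and 1 TGTGGC, and 3 ETS motifs. In the sequence printed above, 2 TGTGGT motifs were 35 bp apart on the strand of the gene, and the nearest ETS motif was 20 bp from a RUNX motif. As many RUNX motifs were present in 18.0% of all Runx3-bound regions. Region 2 held 2 RUNX motifs 247 bp apart with an ETS motif 6 bp from 1 of them, and region 3 held 2 RUNX motifs 65 bp apart. The gene start itself had no called region of either kind, with the nearest H3K4me1-marked region 6.73 kb and the nearest Runx3-bound region 101 kb away. The nearest annotated transcript start of any kind to the 3 regions was that of D630008O14Rik, at 70.9, 65.2 and 59.0 kb, and the nearest protein-coding start was that of Bcl2.

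Bcl2l1, which encodes BCL-XL, lies at chr2:152593052-152657464 on the minus strand. Its 10 H3K4me1-marked regions (1.32% of genes had as many) covered 32.8 kb or 31.4% of the 104 kb window, a share reached by 0.483% of genes. Their median width was 2964 bp, against 1592 bp for the whole list, and all of them lay in the gene body between 2.78 and 57.2 kb from the gene start. Both Runx3-bound regions were wholly inside H3K4me1-marked regions at opposite ends of this stretch, 50.3 kb apart, and both sat in the last intron (62.0 kb). Region 1 (chr2:152651345-152651990, 646 bp) was 5.80 kb from the gene start and 2.60 kb from an alternative start of Bcl2l1. Region 2 (chr2:152600998-152601640, 643 bp) was 56.1 kb from the gene start and closer to the start of Cox4i2, a cytochrome c oxidase subunit gene, at 21.4 kb. Its nearest annotated transcript start of any kind was that of AL731857.1, at 2.69 kb. The last 5 H3K4me1-marked regions of Bcl2l1 also had the Cox4i2 start as their nearest protein-coding start.

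Each of the 2 regions of Bcl2l1 held 3 RUNX motifs. In region 1, a TGTGGT motif lay 1.00 bp from the centre of the region, as the sequence above shows, and there was no ETS motif, which made it the exception among the 17. In region 2, 2 RUNX motifs were 1 bp apart and an ETS motif was 17 bp away. The density of Runx3-bound regions was 1.92 per 100 kb, reached by 18.5% of genes.

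Mcl1 encodes a short-lived anti-apoptotic protein that T cells need to survive. It is a gene of 4.46 kb at chr3:95462643-95467099 on the plus strand, and 4 Runx3-bound regions lay in its 44.5 kb window. A count of 4 was reached by 2.19% of genes, and the density of 9.0 per 100 kb by 64 genes (0.286%). H3K4me1 covered 29.8% of the window in 6 regions of 1656 to 2733 bp, a share reached by 0.555% of genes. The 4 Runx3-bound regions fell into a promoter region and a group of 3 downstream of the gene, 10.4 to 15.7 kb from the gene start.

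Region 1 of Mcl1 (chr3:95462365-95462728, 364 bp, the narrowest of the 17) held the annotated gene start, with its centre 96 bp upstream. It held no RUNX motif and 5 ETS motifs, a number reached by 12.2% of Runx3-bound regions. The upstream sequence printed above carries 3 of these, all beginning with CGGAA. The closest H3K4me1-marked region was 3491 bp away.

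Region 2 of Mcl1 (chr3:95472444-95473669) was 1226 bp wide, and 35 of all 9135 Runx3-bound regions (0.383%) were wider. It lay 5.96 kb beyond the end of the gene and filled most of a 2077 bp gap between 2 H3K4me1-marked regions, with 94 bp and 757 bp left on its sides. Its 3 RUNX and 4 ETS motifs all lay outside the central 200 bp. Region 3 (chr3:95476870-95477327, 458 bp) straddled the edge of the next H3K4me1-marked region with 63.3% of its length marked, and region 4 (chr3:95478122-95478538, 417 bp) lay in the following gap of 1544 bp without touching either side. Both therefore touched the same gap. Region 3 held 2 RUNX motifs, and region 4 held 1, at 15.5 bp from its centre. The nearest protein-coding start to region 4 was that of Adamtsl4, at 13.5 kb, and by transcript starts of any kind regions 2 to 4 were all nearer to Adamtsl4, at 8.02, 3.98 and 2.74 kb.

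**Figure D2:**
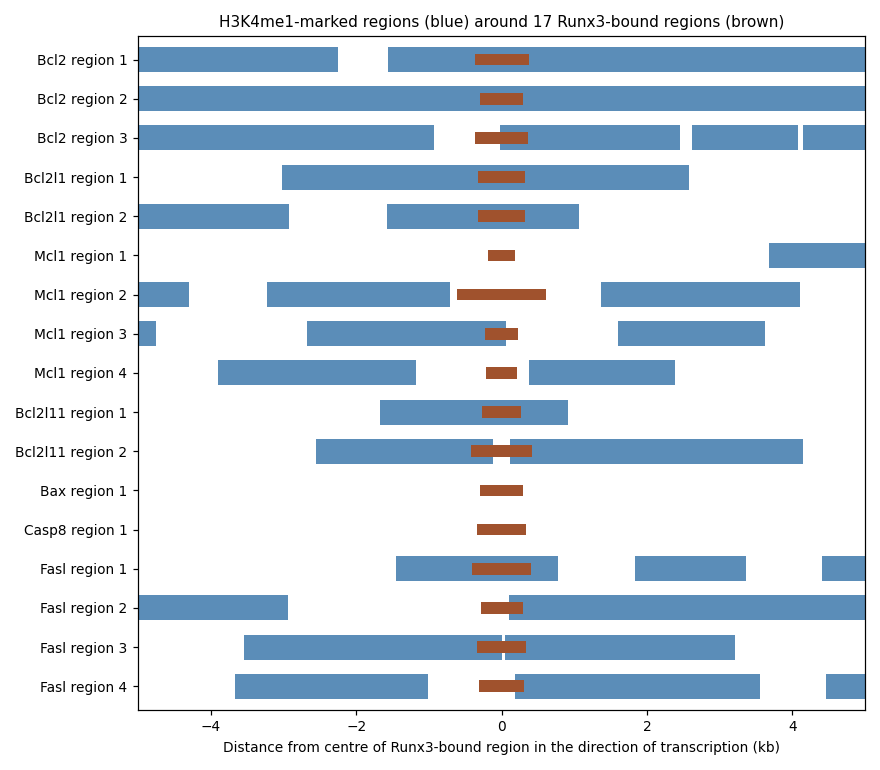
H3K4me1-marked regions (blue) in the 5 kb on either side of the centre of each of the 17 Runx3-bound regions (brown bars, drawn to their called width), with distance in kb in the direction of transcription on the horizontal axis. Mcl1 regions 2 and 4 lie in gaps between marked regions, Bcl2l11 region 2 and Fasl region 3 lie across gaps of 233 and 30 bp, and Bax and Casp8 have no marked region in view.

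Bcl2l11, which encodes the BH3-only protein BIM, lies at chr2:127951774-127988283 on the plus strand. It had 7 H3K4me1-marked regions over 19.7% of the window (2.08% of genes had as much) and 2 Runx3-bound regions, or 2.61 per 100 kb (9.29% of genes). Region 1 (chr2:127959587-127960128, 542 bp) lay 8.08 kb from the gene start in the second intron and was wholly inside an H3K4me1-marked region of 2578 bp. It held 2 ETS motifs and no RUNX motif, and the sequence above opens with a run of GA repeats and has 1 of the ETS motifs. Region 2 (chr2:127978375-127979223, 849 bp) lay 27.0 kb from the gene start in the third intron and bridged a 233 bp gap between H3K4me1-marked regions of 2433 and 4032 bp. Of its length 72.6% was marked, and it held 2 TGTGGT motifs 293 bp apart, neither of them in the central 200 bp. A further pair of H3K4me1-marked regions 14.9 to 12.5 kb upstream of the gene held no Runx3-bound region.

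Bid, the BH3-only gene whose product is cut by caspase-8, lies at chr6:120841948-120866871 on the minus strand and had the lowest counts together with Bak1. A single H3K4me1-marked region of 1135 bp lay 14.3 to 15.4 kb from the gene start, which was 1.75% of the window. There was no Runx3-bound region in the window, and the nearest was 38.2 kb from the gene. In a window of 50 kb instead of 20 kb, Bid had 2 Runx3-bound regions, and both overlapped H3K4me1.

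Bax and Bak1 encode the pore-forming proteins. At Bax (chr7:52717065-52722268, minus strand), Runx3-bound region 1 (chr7:52721794-52722390, 597 bp) held the gene start and reached over the first exon, with its centre 176 bp downstream of the start. It had 2 RUNX motifs 30 bp apart, both TGCGGC, a form found in 16.3% of all Runx3-bound regions, and its closest H3K4me1-marked region was 5078 bp away. That H3K4me1-marked region, of 1230 bp, was nearer to the start of Ftl1, a ferritin gene, than to that of Bax. At Bak1 (chr17:27156755-27165954, minus strand), a single H3K4me1-marked region of 1863 bp lay 15.6 to 17.5 kb from the gene start, beyond the gene end, and the nearest Runx3-bound region was 21.0 kb from the gene, just outside the window.

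Casp8 encodes the initiator caspase of death receptors and lies at chr1:58852218-58904347 on the plus strand. Runx3-bound region 1 (chr1:58854136-58854802, 667 bp) was in the first intron, 2.25 kb from the gene start. It held 3 RUNX and 2 ETS motifs, with 1 RUNX motif 39.5 bp from its centre, and was 6710 bp from the closest H3K4me1-marked region. H3K4me1 covered 0.901% of the window, the lowest share among the 9 genes, in a single region of 830 bp.

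Fasl lies at chr1:163710820-163718626 on the minus strand and is 7.81 kb long. H3K4me1-marked regions covered 26.6 kb or 55.5% of its 47.8 kb window, the second highest share of all protein-coding genes. The highest was 56.8% at Ccr7, a homing receptor gene, and the next were 54.0% at Tnfrsf1b and 52.0% at Gpr18. There were 9 H3K4me1-marked regions (1.70% of genes had as many), from 17.6 kb upstream to 27.5 kb downstream of the gene start. The widest, of 6145 bp, ended 0.0990 kb short of the gene start on its upstream side.

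The 4 Runx3-bound regions of Fasl all overlapped H3K4me1 and were spread over 37.8 kb, at a density of 8.37 per 100 kb (85 genes, 0.380%). None was in the gene itself: 2 lay upstream and 2 beyond its end. Region 1 (chr1:163734418-163735236, 819 bp, 16.2 kb upstream) was wholly inside the outermost upstream H3K4me1-marked region and held 8 RUNX motifs. These were 2 TGTGGT, 5 TGTGGC and 1 TGCGGT, and 87 of all Runx3-bound regions (0.952%) had as many. Region 2 (chr1:163724689-163725266, 578 bp, 6.35 kb upstream) lay on the far edge of the 6145 bp H3K4me1-marked region and reached into a gap of 3042 bp, with 31.3% of its length marked.

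On the other side, region 3 of Fasl (chr1:163709093-163709777, 685 bp) lay 1.38 kb beyond the gene end and covered a gap of 30 bp between H3K4me1-marked regions of 3551 and 3172 bp. Its 2 RUNX motifs were 22 bp apart, 1 of them 2.50 bp from the centre, with an ETS motif 7 bp from a RUNX motif. All of these are in the sequence above. Region 4 (chr1:163696670-163697293, 624 bp) lay 13.8 kb beyond the gene end on the edge of an H3K4me1-marked region, with 19.6% of its length marked. It held 4 RUNX motifs with the closest pair 12 bp apart, an ETS motif 1 bp from a RUNX motif, and the single AP-1 motif found in the 17 regions. Its 14 ETS motifs, a number reached by 8 Runx3-bound regions (0.0876%), included 10 overlapping matches in a tandem run at steps of 4 bp. The other 4 lay outside that run, and 4 or more ETS motifs were present in 23.8% of Runx3-bound regions. Of these 4, 3 are within the window printed above.

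**Figure D3:**
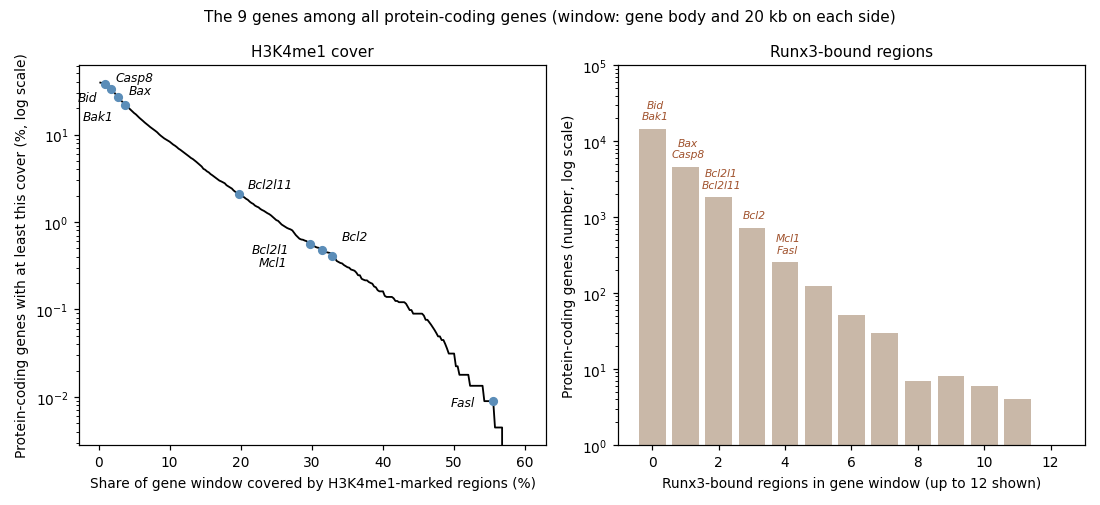
Left, share of protein-coding genes (%, log scale) with at least a given share of their window covered by H3K4me1-marked regions (%), with the 9 genes as points on the curve. Right, number of protein-coding genes (log scale) by number of Runx3-bound regions in the window, with the 9 genes named above their bar. Fasl (55.5%) is second among all genes by cover, Bcl2, Bcl2l1 and Mcl1 lie near 30%, Bcl2l11 is at 19.7%, and Bid, Bax, Bak1 and Casp8 are all under 4% cover.

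At the gene starts themselves, a Runx3-bound region held the start of 2 of the 9 genes, Mcl1 and Bax, against 6.46% of all protein-coding genes. No start of the 9 genes was inside an H3K4me1-marked region, against 1.29% of all genes, a share so low that 0 of 9 carries no information about these genes. Near the 20 kb limit, the outermost members were Fasl region 1, 16.2 kb upstream, and Fasl region 4, 13.8 kb beyond the gene end. The closest Runx3-bound regions left out were 20.9 kb from Fasl, 21.0 kb from Bak1 and 21.9 kb from Bcl2.

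Of the 17 Runx3-bound regions, 12 overlapped an H3K4me1-marked region, or 70.6% (46.9 to 86.7%), against 57.3% of the whole list (56.3 to 58.3%). These and the following intervals are 95% Wilson intervals, which cover counting error among regions only. They treat regions as independent, although the 17 came from 7 genes. H3K4me1 overlap was 4 of 4 at Fasl, 3 of 3 at Bcl2 and 2 of 2 at both Bcl2l1 and Bcl2l11. At Mcl1 it was 1 of 4, and at Bax and Casp8 0 of 1 each. Under 1 kb from an annotated transcript start were 2 regions, or 11.8% (3.29 to 34.3%), against 26.3% of the list, and over 5 kb were 10 regions, or 58.8%, against 56.4%. The intervals of the 17 regions include the value of the whole list for each of these 3 shares, so no difference was detectable at this number of regions. Their median width was 643 bp (364 to 1226 bp), against 521 bp.

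In relation to H3K4me1, 6 of the 17 regions (35.3%) were wholly inside a marked region, against 34.7% of the list, and 3 (17.6%) were over 3 kb from any marked region without lying in a short gap, against 30.0%. The 3 were Mcl1 region 1, Bax region 1 and Casp8 region 1, which are also the 3 Runx3-bound regions closest to a member's start. Regions that reached into or lay within a gap of at most 3 kb between marked regions were 7 of 17, or 41.2% (21.6 to 64.0%), against 15.9% of the list. They were Bcl2 region 3, Mcl1 regions 2 to 4, Bcl2l11 region 2 and Fasl regions 3 and 4. This gap limit was chosen after the values of these regions had been seen, and Mcl1 regions 3 and 4 touch the same gap, so the count is a description. Conversely, 14 of the 65 H3K4me1-marked regions (21.5%, 13.3 to 33.0%) held a Runx3-bound region, against 29.2% of the whole H3K4me1 list. Both marked regions beside a bridged gap were counted, and 1 marked region of Bcl2 held a Runx3-bound region that lay outside the window. The marked regions at the 9 genes had a median width of 2110 bp, against 1592 bp.

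RUNX motifs were present in 15 of the 17 Runx3-bound regions, or 88.2% (65.7 to 96.7%), against 92.6% of the list. In the central 200 bp the count was 13, or 76.5%, against 78.8% of the list and 36.4% of the 13442 H3K4me1-marked regions without Runx3. TGTGGT was present in 13 regions (76.5%, against 69.6%), TGTGGC in 10 (58.8%, against 45.7%), TGCGGT in 2 (11.8%, against 20.8%) and TGCGGC in 1 (5.88%, against 16.3%). At least 2 RUNX motifs were in 14 regions, or 82.4%, against 67.3% of the list.

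ETS motifs were present in 16 regions, or 94.1% (73.0 to 99.0%), against 88.9% of the list. In the central 200 bp they were in 11, or 64.7%, against 66.2% of the list and 52.5% of H3K4me1-marked regions without Runx3. Pairs of RUNX motifs within 50 bp occurred in 6 regions (35.3%, against 37.4%), and a RUNX and an ETS motif within 50 bp in 9 (52.9%, against 57.4%). The RUNX motif closest to the centre was at a median of 47.0 bp over the 15 regions that had one, against 38.0 bp over the list. The extremes among the 17 included Fasl region 1 (8 RUNX motifs) and Fasl region 4 (14 ETS motifs, 10 in its tandem run). The others were the 2 regions without a RUNX motif and Bcl2l1 region 1 without an ETS motif.

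**Figure D4:**
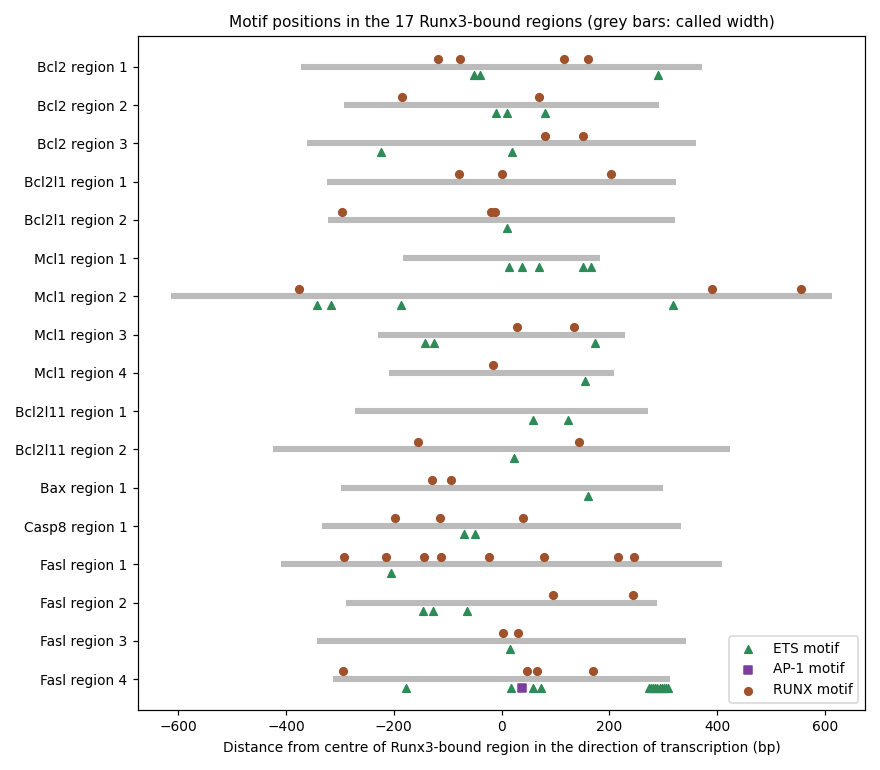
Positions of RUNX (circles), ETS (triangles) and AP-1 (square) motifs in the 17 Runx3-bound regions, as distance in bp from the centre of the region in the direction of transcription, with grey bars for the called width. Mcl1 region 1 and Bcl2l11 region 1 have no circle, Fasl region 1 has 8, and Fasl region 4 has 14 triangles, of which 10 form a tight run at its downstream end.

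**Figure D5:**
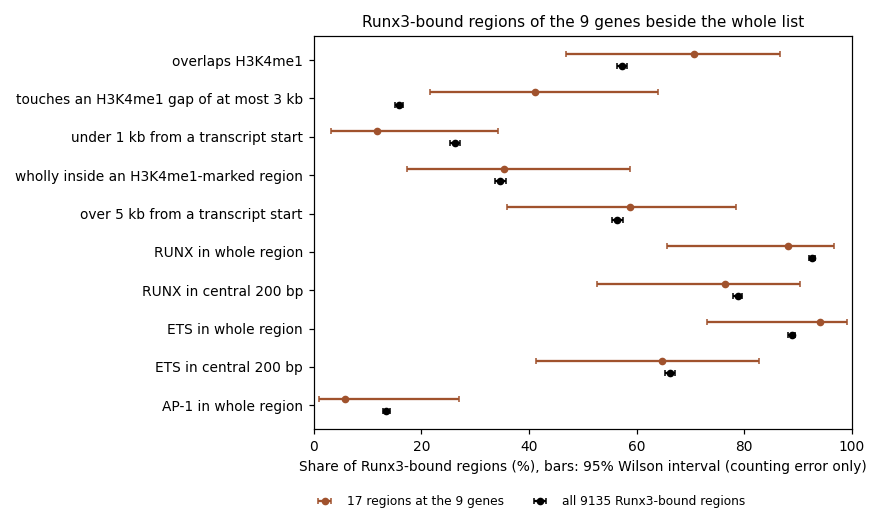
Shares (%) of the 17 Runx3-bound regions at the 9 genes (brown) and of all 9135 Runx3-bound regions (black) with each property, with 95% Wilson intervals for counting error as bars. Among the properties plotted, the brown interval leaves out the black value for gaps of at most 3 kb (41.2% against 15.9%) and includes it for the others. The 3 kb limit was chosen after these regions had been seen, and Mcl1 regions 3 and 4 touch the same gap. The gap share is therefore a description and not a detected difference.

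A list of 33 further genes of apoptosis gives the surroundings of the 9. Runx3-bound regions were found at 18 of them (54.5%, against 34.2% of all genes) and H3K4me1-marked regions at 17 (51.5%, against 39.4%), with 25 and 47 regions in all. The highest number at a single gene was 3, at each of the inhibitor of apoptosis genes Birc3 and Birc5. Apaf1, the scaffold of the apoptosome, and the receptor gene Fas had 2 each. At Fas and Birc3 1 of them overlapped H3K4me1, and at Apaf1 and Birc5 none did. Genes without a called Runx3-bound region included Bad, Bcl2a1a, Bcl2a1b, Bcl2l2, Bmf, Bok, Casp6, Casp9, Diablo, Hrk, Ripk1, Tnfrsf1a, Trp53 and Xiap. Bcl2a1a, Bcl2a1b and Bcl2a1d are near-identical copies, and since only uniquely aligned reads had been kept, the counts of 0, 0 and 1 at these copies are uncertain.

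The cell type of the labels was checked with marker genes in the same windows. H3K4me1-marked regions were present at 8 of 8 T cell genes, with a median of 21.0% of the window covered. These were Cd8a and Cd8b1 of the CD8 lineage, and Cd3d, Cd3e, Cd3g, Cd2, Cd5 and Lck, which other T cells also express. No gene specific to CD4+ T cells was included, so these markers do not tell CD8+ and CD4+ T cells apart. The authors report that nearly all cells were CD3+ CD8-TC at the end of culture. Cd3d, Cd3e and Cd3g are neighbours with 8 marked regions each. Cd8a and Cd8b1 are neighbours too, so windows can share regions. H3K4me1-marked regions were present at 3 of 4 B cell genes (median 2.69%), 2 of 4 myeloid genes (1.31%), 1 of 2 NK cell genes (10.7%), 2 of 2 dendritic cell genes (11.6%) and 1 of 2 fibroblast genes (1.14%). Ms4a1, Csf1r, Lyz2, Ncr1 and Pdgfra had none. The most regions at genes of other cell types were 8 at Itgam (myeloid), 6 at Klrb1c (NK cell), 4 at Zbtb46 and 3 at Itgax (both dendritic). The share of other cells in the H3K4me1 and Runx3 signal of the 9 genes was not tested.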

How the data were processed

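ChIP-seq was analysed for IL-2-activated splenic CD8-TC from 2 anti-Runx3, 2 NIS and 1 anti-H3K4me1 libraries. The authors used ELAND to align reads of 40 to 42 bases to mm9, retained those with a unique position, joined repeats and called peaks with MACS against joined NIS reads, the larger read set being scaled to the smaller. The deposited values were start and end positions in bp, with 0 score columns, so the reads and the height behind a region were not analysed.

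Genes, their windows of 20 kb and transcript starts came from GENCODE vM1 on NCBIM37 (mm9). Coordinates count from 1, and overlap required 1 bp. The promoter sequences of RefSeq are on another build and were not used. All 9 genes are named with every Runx3-bound region, and the further lists were fixed by rule (the 5 genes with most Runx3-bound regions and those with none), of which some are not reported here. Genes and lists were chosen with earlier results of these data known. The 3 kb gap limit, the 50 bp motif spacing and the second set of sequences were chosen after the regions had been seen. Overlap, cover, gap, motif and merging functions were tested on 3000 simulated regions, with 0 differences from direct counting. No test was run, and alternatives were other windows, overlap definitions, merging, width limits and motif windows. Scripts ran in Python 3.11.15 with pandas 2.3.3, NumPy 2.4.6 and SciPy 1.17.1, and plots were drawn with matplotlib 3.10.9.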

Additional observations from a re-analysis of the deposited data

How the results depend on the processing

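Of 32 alternatives to the 7 results, 29 kept the value within 1.5 times for counts or within its 95% interval for shares, and 3 moved it. With the gene body alone, the 9 genes held 10 Runx3-bound regions instead of 17, and with windows of 50 kb they held 27. The share of Runx3-bound regions nearest to the start of their own gene was 88.2% over protein-coding starts and 58.8% when transcript starts of any gene were used. These 3 changes follow from the window or the set of starts. Overlap with H3K4me1 ranged from 52.9% (centre of the region marked) to 82.4% (within 1 kb of a marked region), around 70.6%. A limit on peak scores could not be set because the lists hold none, and regions at least as wide as the median of the Runx3 list (14 of 17) were used instead. No paired analysis was possible because peaks had been called on joined reads of the repeats, which leaves no value for a single library. With 17 regions, the differences from the whole list in overlap, distance to starts and motifs lie within counting error. That error treats the regions as independent, and their grouping by gene was not taken into account.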
